A study of Homo sapiens with 6 samples.

Results

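The genes described are 34 aminoacyl-tRNA synthetase genes, 18 for cytosolic enzymes and 16, with symbols ending in 2, for mitochondrial enzymes. They were taken by symbol from the annotation of an Illumina expression array, which names 39 probes for them, out of 47322 probes and 20046 named genes in all. Expression was measured in KG1a, an established line of immature leukaemic myeloid cells of human origin, on 6 arrays. The groups were KG1a cells exposed to 2 µM of 7l, a compound that the labels name by code alone, during 24 h (3 arrays), and control KG1a cells (3 arrays). For the controls the sources used here give no vehicle and no time. All arrays come from this 1 line, and no label says that replicates were grown apart. The p-values thus reflect the spread among these arrays alone, which may be technical. In bulk RNA, fewer cells carrying a transcript and less transcript per cell cannot be told apart.

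Aminoacyl-tRNA synthetases join each amino acid to its matching transfer RNA, the step that fixes the genetic code in protein synthesis. The cytosol and the mitochondrion each need their own charged tRNAs, and in human cells most amino acids have a cytosolic and a mitochondrial enzyme made from separate nuclear genes. GARS1 and KARS1 are exceptions, since each of these genes supplies the glycine or lysine enzyme of both compartments. Many cytosolic synthetase genes are known targets of ATF4, the transcription factor that is translated when amino acids run short and the kinase GCN2 senses uncharged tRNA. The mitochondrial enzymes charge the tRNAs that read the few messages of the mitochondrial genome, which encode respiratory chain subunits.

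Values are log2 intensities with a lowest intensity of 1, and each gene is described by its brightest probe. The median intensity was 4.95 on every array, and 22816 probes of each array lay above a background level of log2 2.46, set by genes for smell and taste receptors and hair proteins. Of the markers listed for KG1a cells, CD34, SPN, PTPRC, MYB and CD7 were above background on every array and FLT3 on none, and MYB fell with 7l (-0.50 ± 0.08, limma adjusted p = 0.0442). Among markers of other cells HBA1 and CD3E were above background on no array and HBB on 0 of 3 arrays of 7l and 1 of 3 control arrays. EPCAM was above it on 2 arrays of each group, and CD14, a monocyte marker, averaged 3.90 ± 0.39 with 7l and 3.15 ± 0.39 in control cells (SD, n = 3 each; limma adjusted p = 0.231). The part of these markers in the results below was not tested. The sorted values were nearly identical on all arrays as deposited, so a shift of all transcripts at once could not be seen.

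The comparison asked whether the 2 classes of synthetase transcripts differed between cells given 7l and control cells. Of the 34 genes 33 passed the filter on dim genes, and 1 of these, the mitochondrial seryl-tRNA synthetase gene SARS2, passed the test and was 1.86-fold lower with 7l. No cytosolic gene passed, with changes from -0.40 to 0.45 on the log2 scale, although 5 were higher and 1 lower at an unadjusted p under 0.05, which 20.5% of all genes reached. The median log2 change (7l minus control) was 0.086 over the 18 cytosolic genes and -0.021 over 15 mitochondrial genes, against 0.0067 over all 12334 genes tested. With probes averaged the mitochondrial median turned to 0.0084. Leaving out array 1 of 7l moved the cytosolic median to 0.044 and the mitochondrial one to -0.0088, while the mitochondrial median was -0.059 without array 2 of 7l, -0.059 without control array 2 and -0.035 without control array 3. The test was limma across all genes with Benjamini-Hochberg adjustment, and calls are those below an adjusted p of 0.05. It called 2.38% of all genes, 1.22% higher and 1.16% lower, so the 1 call among 33 synthetase genes is a share near that background. The 3 arrays of 7l lay apart from all 3 control arrays for 28.9% of all genes, 15.1% higher and 13.8% lower. Among cytosolic genes 6 of 18 lay apart above control and 3 below, and among mitochondrial genes 1 of 15 lay above and 4 below.

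**Figure D1:**
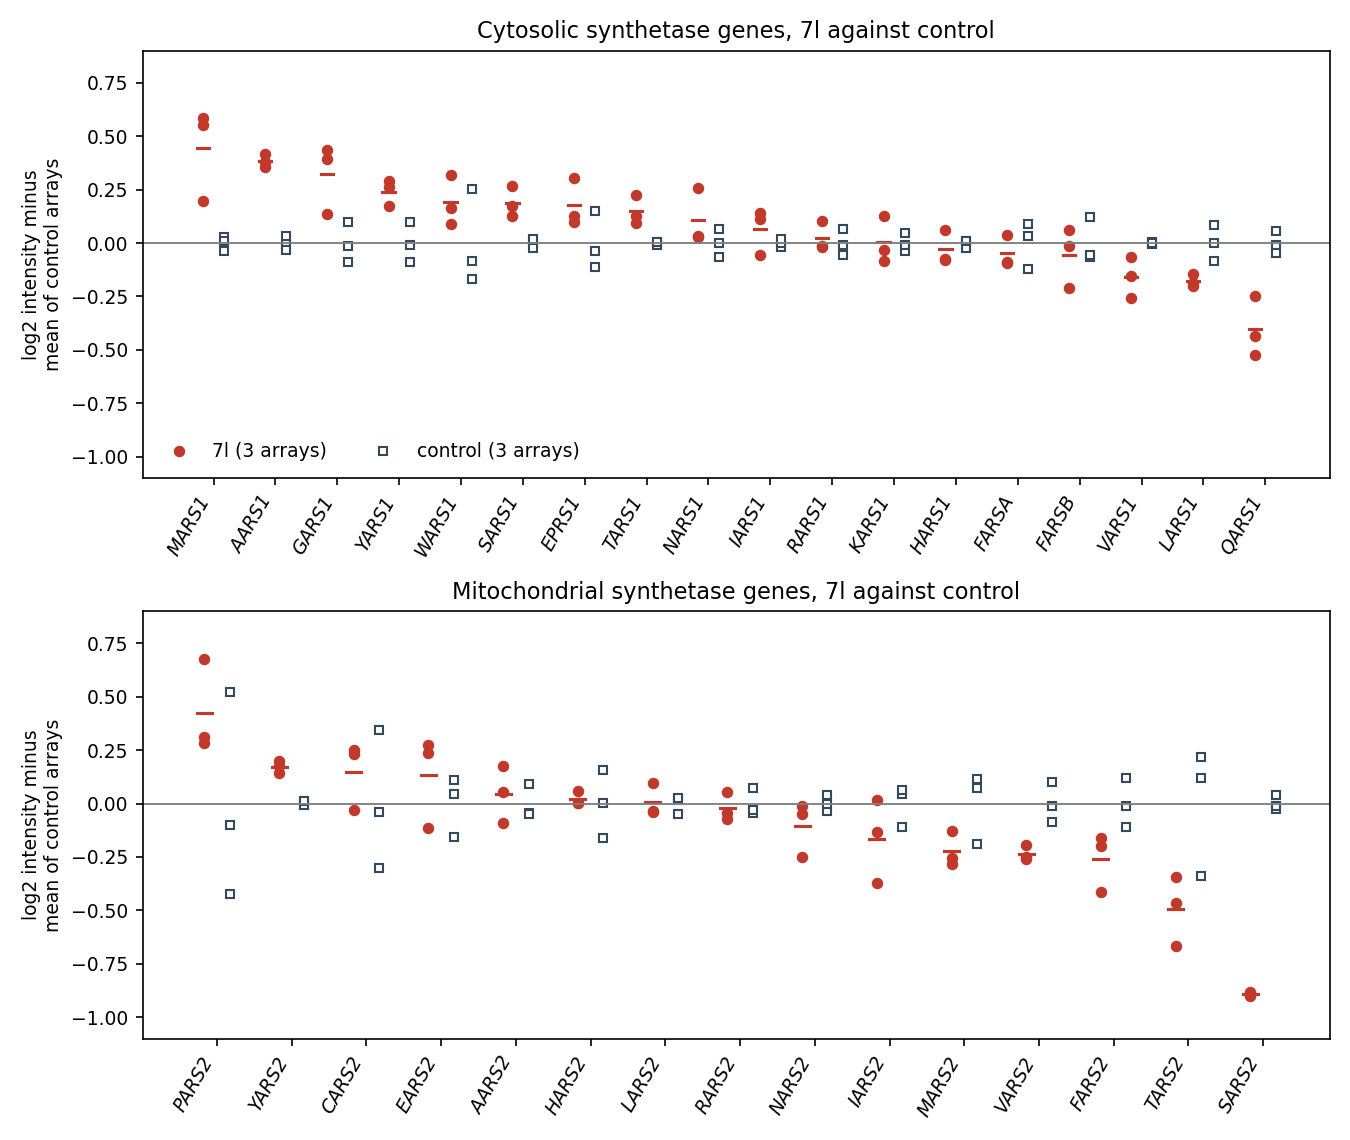
Log2 intensity of each tested synthetase gene on each array, minus the mean of the 3 control arrays, with 7l as filled circles left of control as open squares, and the 7l mean as a short bar; cytosolic genes are above and mitochondrial genes below, ordered by that mean. SARS2 lies lowest at -0.89 with little spread, and MARS1 and AARS1 lie highest among cytosolic genes at 0.45 and 0.38.

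SARS2 charges the mitochondrial serine tRNAs. It measured 7.63, 7.61 and 7.61 on the arrays of 7l, against 8.48, 8.50 and 8.55 on the control arrays (log2 intensity). The groups were far apart relative to their spread, with means of 7.62 ± 0.01 with 7l and 8.51 ± 0.04 in control cells (SD, n = 3 each). The log2 change was -0.89 ± 0.06 (SE; limma adjusted p = 0.0123), and SARS2 stood at rank 20 of the 12334 genes by p. A change at least as low was measured for 564 genes, 4.57% of those tested, so its place among the calls rests on its small spread as well as its size. Leaving out any 1 array ended the call, with adjusted p from 0.0549 to 0.0759, while the change stayed between -0.91 and -0.87.

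The SARS2 gene lies head to head with MRPS12, which encodes a protein of the small mitochondrial ribosomal subunit, and 181 bases separate their annotated starts. MRPS12 averaged 11.55 with 7l and 11.66 in control cells, a log2 change of -0.10 ± 0.08 that did not pass (limma adjusted p = 0.519). The stretch before the SARS2 start, which runs on past the MRPS12 start, is shown because SARS2 is the 1 called gene and its neighbour was not called. In the sequence below, from RefSeq on GRCh38.p14, capitals mark matches to the CCAAT box and to the ETS core CCGGAAG on either strand.
SARS2 (chr19:38930764-38931013, minus strand): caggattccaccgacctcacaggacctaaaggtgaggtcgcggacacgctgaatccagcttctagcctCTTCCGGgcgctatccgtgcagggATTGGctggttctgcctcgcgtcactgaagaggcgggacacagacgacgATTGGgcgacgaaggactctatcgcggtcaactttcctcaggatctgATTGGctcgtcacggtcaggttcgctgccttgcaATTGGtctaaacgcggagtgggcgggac
It holds 4 CCAAT boxes, all read on the opposite strand, and 1 ETS core. A count of 4 or more CCAAT matches was found in 0.991% of the 35116 promoter windows of the table, and in 1 window of the other synthetase genes. These matches describe the letters only.

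The other mitochondrial genes did not pass. VARS2, the valine enzyme, measured 8.79, 8.78 and 8.85 with 7l, against 9.03, 9.14 and 8.95 in control cells, and the groups did not overlap (change -0.23 ± 0.08, limma adjusted p = 0.189). TARS2, the threonine enzyme, measured 5.05, 4.93 and 4.73 with 7l, against 5.52, 5.62 and 5.06 in control cells. Its groups were barely apart, since the highest array of 7l and the lowest control array nearly touched, and the change of -0.49 ± 0.18 did not pass (limma adjusted p = 0.219). FARS2, the phenylalanine enzyme, lay apart in the same direction at -0.26 ± 0.11. YARS2, the tyrosine enzyme, was the 1 mitochondrial gene with every array of 7l above control, at 8.23, 8.20 and 8.25, against 8.05, 8.05 and 8.07 in control cells. That difference of 0.17 ± 0.06 was small but exceeded the spread within either group, and it did not pass (limma adjusted p = 0.208).

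PARS2, the proline enzyme, had the largest positive change of the mitochondrial genes tested, 0.42 ± 0.27, but it was dim and its groups overlapped, at 4.24, 4.21 and 4.60 with 7l and 4.45, 3.50 and 3.82 in control cells. The cysteine, glutamate and alanine enzymes CARS2, EARS2 and AARS2 measured 0.15 ± 0.19, 0.13 ± 0.14 and 0.046 ± 0.10, all within overlapping groups. WARS2, the tryptophan enzyme, lay under the filter, with 0 of 3 arrays above background with 7l and 1 of 3 in control cells, so no change is given for it. MARS2 had a second probe, much dimmer, whose sign disagreed with the first, at 3.46, 3.74 and 1.28 with 7l, against 3.40, 3.27 and 0.00 in control cells. Its brighter probe measured 6.21, 6.19 and 6.34 with 7l, against 6.54, 6.58 and 6.28 in control cells. With both probes averaged the MARS2 change was 0.19 in place of -0.22, so its direction is uncertain.

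Among cytosolic genes AARS1, the alanine enzyme, came nearest to the threshold. It measured 11.07, 11.10 and 11.13 on the arrays of 7l, against 10.71, 10.69 and 10.75 on the control arrays. All 3 arrays of 7l lay well above control, with a change of 0.38 ± 0.06 that just missed the threshold (1.31-fold; limma adjusted p = 0.0547). MARS1, the methionine enzyme, measured 8.04, 8.00 and 7.65 with 7l, against 7.48, 7.46 and 7.41 in control cells. The array of 7l at 7.65 was nearer to control than the others, and the change of 0.45 ± 0.12 did not pass (limma adjusted p = 0.140). In RefSeq the span of MARS1 overlaps that of the stress gene DDIT3, which measured 1.07 ± 0.44 (limma adjusted p = 0.264), and whether the MARS1 probe reads DDIT3 transcripts was not tested. YARS1, the tyrosine enzyme, measured 10.78, 10.76 and 10.67 with 7l, against 10.41, 10.48 and 10.59 in control cells (change 0.24 ± 0.08, limma adjusted p = 0.194). GARS1, which serves both compartments, measured 10.50, 10.25 and 10.54 with 7l, against 10.21, 10.02 and 10.10 in control cells, again with no overlap (change 0.32 ± 0.11, limma adjusted p = 0.201).

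QARS1, the glutamine enzyme, had the most negative change of the cytosolic genes. It measured 10.68, 10.40 and 10.49 with 7l, against 10.99, 10.92 and 10.88 in control cells. All arrays of 7l lay below control, but with a wider spread than the control arrays, and the change of -0.40 ± 0.10 did not pass (limma adjusted p = 0.105). VARS1, the valine enzyme, measured 7.88, 7.79 and 7.69 with 7l, against 7.95, 7.94 and 7.94 in control cells, a difference of -0.16 ± 0.08 beside very even control values. A second VARS1 probe, under the filter and above background on 1 of 3 arrays of 7l and 0 of 3 control arrays, had the opposite sign, at 1.72, 1.86 and 3.80 with 7l, against 0.00, 1.35 and 1.74 in control cells. Its mitochondrial counterpart VARS2 also lay below control, at -0.23. KARS1, the lysine enzyme that also serves both compartments, measured 0.0035 ± 0.08, and the FARSA and FARSB subunits of the phenylalanine enzyme measured -0.047 ± 0.09 and -0.055 ± 0.11. A second, dim FARSB probe had the same sign but a larger change of -0.51, with overlapping groups. It measured 3.58 ± 0.17 with 7l and 4.09 ± 0.52 in control cells (SD, n = 3 each).

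The number of calls depended on how the variance of each gene was estimated. With a trended and robust prior in limma, which borrows more between genes and called 13.8% of all genes (7.21% higher and 6.59% lower), 7 of 33 synthetase genes were called. AARS1 (limma adjusted p = 2.13e-05), MARS1 (0.000860), GARS1 (0.00222) and YARS1 (0.0121) were then called higher. QARS1 (4.03e-05), SARS2 (4.92e-11) and VARS2 (0.0343) were called lower by the same limma adjusted p. So 4 of 18 cytosolic genes were called higher and 1 lower, and 0 of 15 mitochondrial genes higher and 2 lower.

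The cytosolic class was divided by a list of 10 members known as targets of ATF4 in the amino acid response. These were AARS1, EPRS1, GARS1, IARS1, MARS1, NARS1, SARS1, TARS1, WARS1 and YARS1. All 10 had a positive change, between 0.065 and 0.45, with a median of 0.19, and 6 of them lay apart above control with 0 below. Of the other 8 cytosolic genes 2 had a positive change and 6 a negative one, with a median of -0.051, and 0 lay apart above control and 3 below. Over all genes tested 51.1% of changes were positive, with a median of 0.0067, and 15.1% lay apart above control and 13.8% below. None of the 10 passed the test. At an unadjusted p under 0.05 in limma 5 of them were higher and 0 lower, where 1327 of all 12334 genes were higher and 1199 lower. Each of the 10 stayed positive with probes averaged, with the offset of 16, with array weights and without any 1 array. By array, the median of the 10 genes relative to the control mean was 0.27, 0.19 and 0.17 with 7l, against 0.016, -0.027 and 0.0020 in control cells. For the other 8 it was -0.085, -0.063 and -0.020 with 7l, against 0.0075, -0.0072 and -0.0050 in control cells. No test is given for these medians, since the genes were grouped with earlier results of these data known. The counts depend on which genes the list holds, and other lists of ATF4 targets were not tried. Placing LARS1, QARS1 or VARS1 on it, the 3 others that lay apart below control, would alter them.

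**Figure D2:**
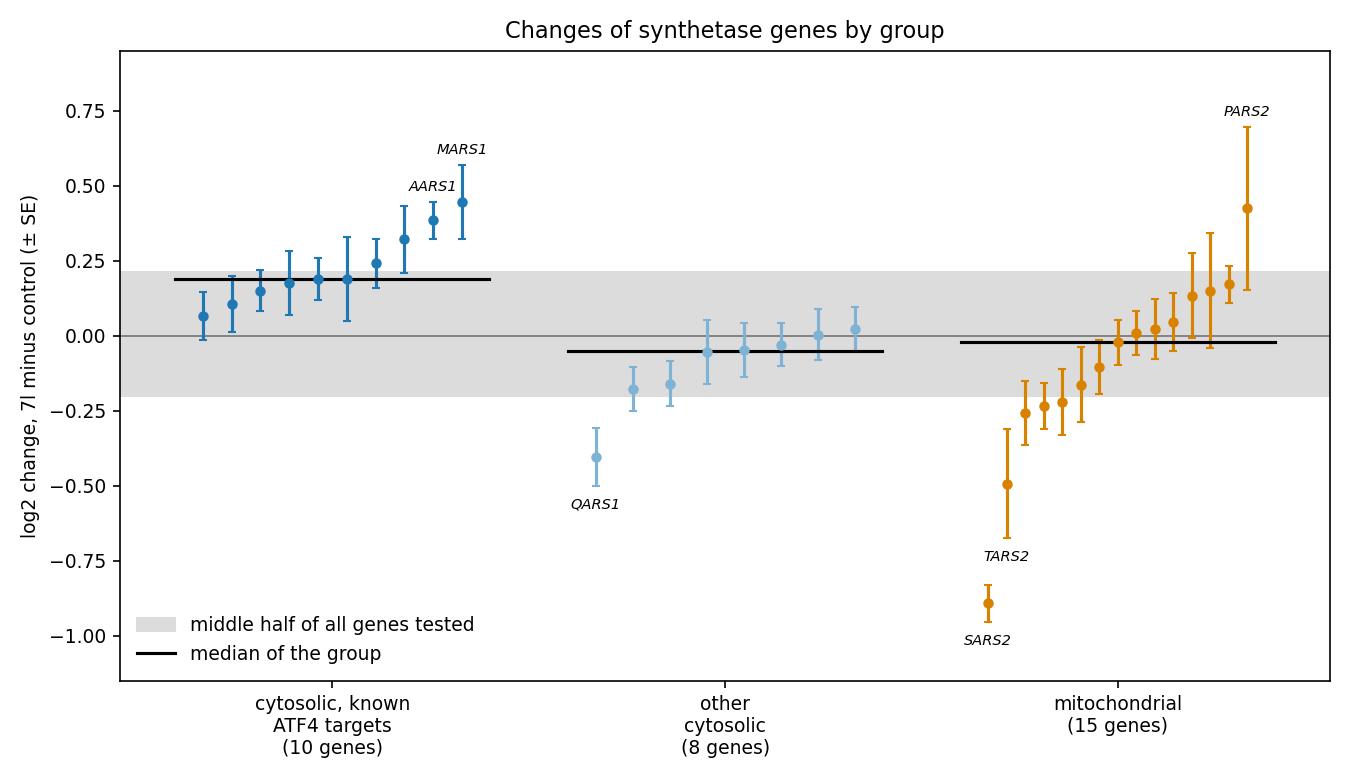
Log2 change (7l minus control, ± SE of the limma fit) of each tested synthetase gene, for cytosolic genes known as ATF4 targets, other cytosolic genes and mitochondrial genes; black bars are group medians (0.19, -0.051 and -0.021) and the grey band, from -0.20 to 0.21, holds the middle part of all genes tested, between the quartiles. All 10 genes of the first group lie above 0, 6 of them inside the band.

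EPRS1, the fused glutamate and proline enzyme, measured 9.73, 9.70 and 9.91 with 7l, against 9.75, 9.57 and 9.49 in control cells, so the groups overlapped (change 0.18 ± 0.11). WARS1, the tryptophan enzyme and also an interferon-induced gene, measured 8.47, 8.32 and 8.24 with 7l, against 8.40, 8.07 and 7.99 in control cells on its brighter probe. Its change of 0.19 ± 0.14 came with overlapping groups. On its dimmer probe WARS1 measured 7.50, 7.44 and 7.81 with 7l, against 7.30, 7.06 and 7.07 in control cells, with no overlap and a change of 0.44.

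ATF4 acts through a composite site that it shares with C/EBP factors, the C/EBP-ATF response element or CARE, whose letters are TGATGCAA. RefSeq promoter windows on GRCh38.p14, from 250 bases before to 50 after each annotated start, were found for 29 of the 34 genes. LARS1, VARS1, YARS1, AARS2 and VARS2 had no window and were not searched. On either strand the site occurred in the windows of 5 of 15 cytosolic genes, AARS1, IARS1, MARS1, NARS1 and TARS1, and of 0 of 14 mitochondrial genes, against 0.866% of all 35116 windows. All 5 are on the list of ATF4 targets, but EPRS1, GARS1, SARS1 and WARS1, also listed, had windows without the site. List and motifs were both chosen with earlier results of these data known, so this overlap is not a test. The stretches around the site are shown because the site was found in 1 class and not in the other, with the site in capitals, as TTGCATCA where it runs on the opposite strand.
AARS1 (chr16:70289626-70289753, minus strand): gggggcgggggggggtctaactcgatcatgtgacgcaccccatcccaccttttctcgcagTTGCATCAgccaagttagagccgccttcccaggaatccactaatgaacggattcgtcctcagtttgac
IARS1 (chr9:92293698-92293770, minus strand): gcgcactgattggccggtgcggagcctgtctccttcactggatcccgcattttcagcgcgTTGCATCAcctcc
MARS1 (chr12:57488053-57488082, plus strand): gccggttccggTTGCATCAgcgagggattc
NARS1 (chr18:57621804-57621833, minus strand): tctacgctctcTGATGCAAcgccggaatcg
TARS1 (chr5:33440956-33440985, plus strand): gcgcctttcgaTTGCATCAgctggtccagc
In AARS1 the site began 187 bases before the start, in IARS1 13 bases and in MARS1 4 bases before it, and in TARS1 and NARS1 at bases 3 and 15 of the transcript. The changes of the 5 genes were 0.38, 0.065, 0.45, 0.11 and 0.15 in the order AARS1, IARS1, MARS1, NARS1 and TARS1. Over the 74 genes tested that hold the site anywhere in their windows, the median change was 0.038, 55.4% of changes were positive, and 1 gene was called higher and 1 lower.

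**Figure D3:**
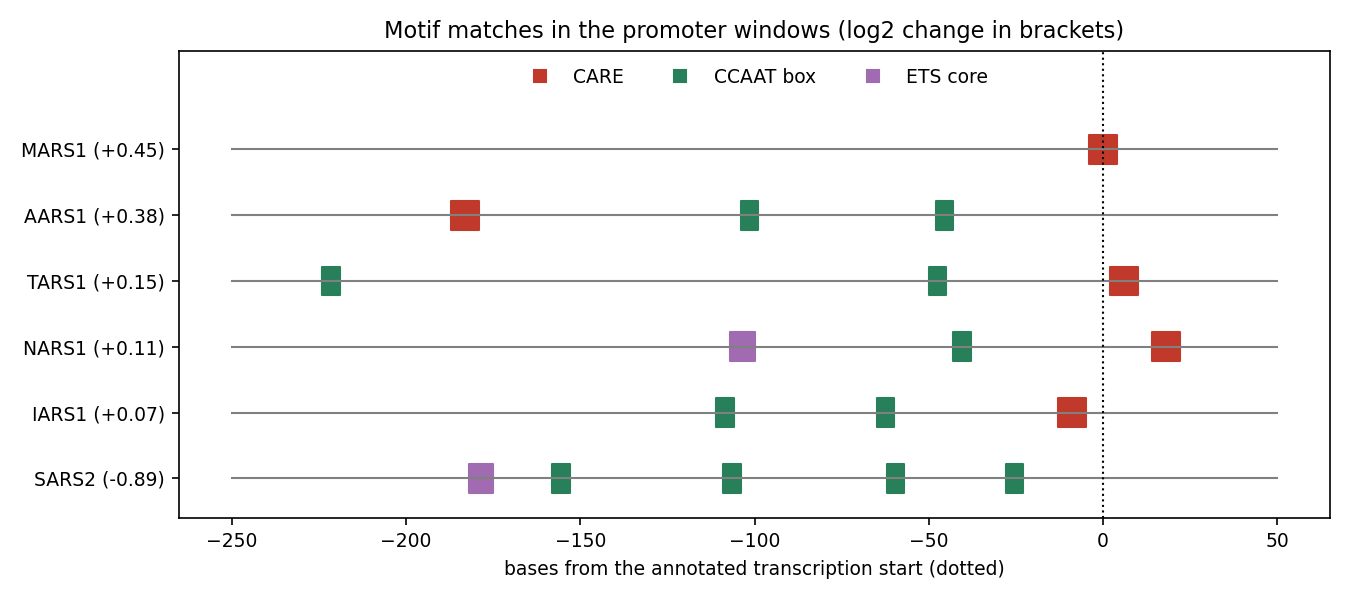
Positions of motif matches in the promoter windows of the 5 genes with a CARE and of SARS2, in bases from the annotated start (dotted line, 250 bases before to 50 after), with each gene's log2 change in brackets. The CARE lies near the start in 4 genes and 187 bases before it in AARS1, and the SARS2 window holds 4 CCAAT boxes and no CARE.

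In all 11 strings were searched on both strands, several of them overlapping. Genes were again counted by any matching window, and the shares beside them are per single window. With 1 base open, TGATGNAA was found in 6 of 15 cytosolic and 1 of 14 mitochondrial genes, GARS1 and YARS2 being added, against 3.62% of all windows, and TGANGCAA in the same 5 genes, against 3.22%. The short string TGATG was found in 14 of the 29 genes, against 32.9% of windows, and ATTGCATCA in 1, against 0.236%. The ETS core CCGGAAG occurred in 15 of 29 genes, 8 cytosolic and 7 mitochondrial, against 10.3% of windows, and CCAAT in 15 (6 and 9), against 34.6%. TGACG occurred in 11 genes (24.6% of windows), the antioxidant element core TGACNNNGC in 6 (13.3%), the looser TGANNNNGC in 14 (41.8%) and GGCGGAAG in 1 (3.27%).

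Amino acids served by separate cytosolic and mitochondrial genes allow a comparison within each amino acid. Of 16 such pairs, counting EPRS1 with both EARS2 and PARS2 and both FARSA and FARSB with FARS2, 15 could be compared, and in 12 the cytosolic change was the higher of the 2. In 8 pairs the changes had opposite signs, and in 6 of these the cytosolic change was the positive one. The pairs share enzymes and arrays, so no test is given for these counts.

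The serine pair differed most. SARS1 measured 6.69, 6.84 and 6.74 with 7l, against 6.57, 6.55 and 6.59 in control cells, so it lay above control on every array where SARS2 lay below (0.19 ± 0.07 and -0.89 ± 0.06, a difference of 1.08). In the methionine pair MARS1 and MARS2 measured 0.45 and -0.22, a difference of 0.67, with the uncertainty in MARS2 given above. TARS1, the threonine enzyme, measured 8.66, 8.76 and 8.63 with 7l, against 8.52, 8.54 and 8.54 in control cells, and did not overlap (change 0.15 ± 0.07, against -0.49 ± 0.18 for TARS2).

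The isoleucine pair had smaller differences. IARS1 measured 9.43, 9.26 and 9.46 with 7l, against 9.30, 9.32 and 9.34 in control cells, and IARS2 measured 8.66, 8.27 and 8.51 with 7l, against 8.69, 8.71 and 8.54 in control cells. Both overlapped between groups (0.065 ± 0.08 and -0.16 ± 0.12). The asparagine pair was alike, with NARS1 at 10.76, 10.53 and 10.54 with 7l, against 10.57, 10.44 and 10.50 in control cells, and a change of 0.11 ± 0.09. NARS2 measured 7.50, 7.47 and 7.27 with 7l, against 7.56, 7.48 and 7.51 in control cells, a change of -0.10 ± 0.09 with overlapping groups.

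In the leucine pair the cytosolic gene was the lower one. LARS1 measured 8.09, 8.10 and 8.14 with 7l, against 8.20, 8.37 and 8.29 in control cells, and the groups did not overlap (change -0.18 ± 0.07, limma adjusted p = 0.266). LARS2 measured 6.86, 6.86 and 6.99 with 7l, against 6.85, 6.91 and 6.92 in control cells, and its change of 0.0084 ± 0.07 was within the spread of either group. The arginine pair showed no difference beyond that spread in either gene. RARS1 measured 10.10, 10.10 and 10.22 with 7l, against 10.18, 10.06 and 10.11 in control cells, and RARS2 measured 7.11, 7.21 and 7.08 with 7l, against 7.22, 7.11 and 7.13 in control cells.

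HARS1 and HARS2, the histidine enzymes, are neighbours that start 85 bases apart on opposite strands. HARS1 measured 7.96, 8.10 and 7.96 with 7l, against 8.05, 8.02 and 8.05 in control cells, and HARS2 measured 7.58, 7.58 and 7.64 with 7l, against 7.58, 7.42 and 7.73 in control cells. Their changes of -0.030 ± 0.07 and 0.022 ± 0.10 lay within the spread of the arrays. Divergent neighbours with a start within 1000 bases were found for 10 synthetase genes, and 8 of the neighbours were tested, HARS1 and HARS2 among them. Of these 8 neighbours 0 were called, where 2.38% of all genes were.

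**Figure D4:**
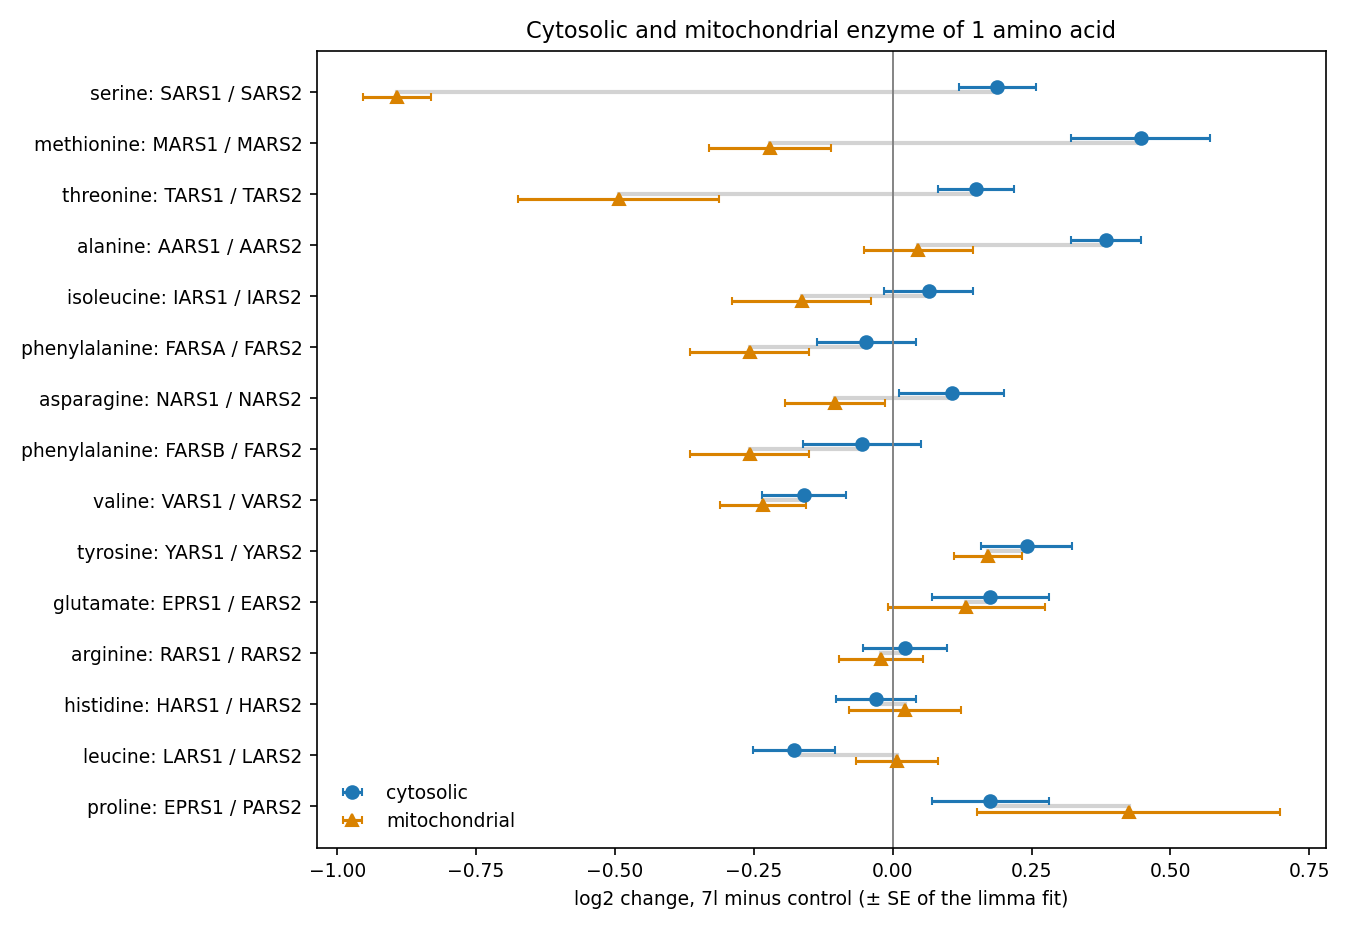
Log2 change (7l minus control, ± SE of the limma fit) of the cytosolic enzyme (circles) and the mitochondrial enzyme (triangles) of each amino acid, ordered by the difference between them. The serine, methionine and threonine pairs lie furthest apart, with differences of 1.08, 0.67 and 0.64, and the leucine, histidine and proline pairs run the other way.

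Relative to the control mean of each gene, the median over the cytosolic class was 0.12, 0.046 and 0.098 on the arrays of 7l, against 0.0075, -0.016 and -0.00057 on the control arrays. The mitochondrial class gave -0.039, -0.050 and -0.073 with 7l, against 0.040, -0.013 and -0.028 in control cells. Each array of 7l thus placed the cytosolic median above the mitochondrial one. The difference between the 2 class medians of change was 0.11. By structural class, cytosolic enzymes of class I, whose active site is a Rossmann fold, and of class II, built on antiparallel strands, had medians of 0.065 and 0.11, each with 6 of 9 genes positive. The fused enzyme EPRS1 was counted in class I alone. Mitochondrial class I and class II genes had medians of -0.0064 and -0.10. By place in the cell, 7 members of the multi-synthetase complex, the particle that holds many cytosolic synthetases together, had a median of 0.022. Of these 7 genes 5 were positive. The 11 free-standing cytosolic enzymes had a median of 0.15, with 7 positive.

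The genes around tRNA charging gave few calls. In the list for sensing of uncharged tRNA 1 of 6 tested genes rose and 0 fell, against 1.22% and 1.16% of all genes. This was ASNS, asparagine synthetase and an ATF4 target, at 6.72 ± 0.12 with 7l and 5.97 ± 0.08 in control cells (SD, n = 3 each; limma adjusted p = 0.0343). ATF4 itself measured 11.85, 11.89 and 11.86 with 7l, against 11.30, 11.39 and 11.53 in control cells, and did not pass (change 0.46 ± 0.08, limma adjusted p = 0.0624). EIF2AK4, encoding GCN2, and TRIB3, a further ATF4 target, measured -0.037 ± 0.08 and 0.0029 ± 0.23, and neither passed.

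The 5 genes tested for tRNA proofreading and selenocysteine tRNA all had negative changes, where 51.1% of all genes had positive ones, with a median of -0.25. None of the 5 was called (3 at an unadjusted p under 0.05, a level 20.5% of all genes reached). SEPSECS, which makes selenocysteine on its tRNA, had the smallest p among them, at 3.92 ± 0.31 with 7l and 4.72 ± 0.08 in control cells (SD, n = 3 each; limma adjusted p = 0.0857), and DTD1, a tRNA deacylase, measured -0.25 ± 0.08. Of 5 tRNA end-processing genes 0 were called (1 at an unadjusted p under 0.05), with a median of -0.17, and PRORP, the protein-only mitochondrial RNase P subunit, measured -0.21 ± 0.07. Of 4 genes that finish mitochondrial charged tRNAs 0 were called, nor at an unadjusted p under 0.05, with QRSL1, an amidotransferase subunit, at -0.55 ± 0.24. Neither were any of 5 cytosolic and 3 mitochondrial elongation factor genes called, nor at an unadjusted p under 0.05, with medians of -0.081 and 0.11 and the smallest p for EEF1D (-0.22 ± 0.09) and TSFM (0.12 ± 0.12). AIMP1, a scaffold of the multi-synthetase complex, was above background on 0 of 3 arrays of 7l and 1 of 3 control arrays and was not tested. CARS1, the cytosolic cysteine enzyme, and the scaffold genes AIMP2 and EEF1E1 were not analysed here. Of 3 synthetase genes listed outside those described, 0 were named by a probe, and of 3 scaffold genes 1 was. The synthetases and the complex are therefore covered in part only.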

How the data were processed

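The data are 6 Illumina arrays of KG1a cells, 3 given 7l and 3 control, grouped and numbered by title (a description field instead gives all 7l arrays one replicate number and all control arrays another). Per the labels' protocols, Trizol RNA was column-purified, treated with DNase and made into biotinylated cRNA. The authors deposited 1 table of linear probe intensity, from 1 to 10984, whose sorted columns matched to a tolerance of 0.0001 at 97.8% of ranks, a state that quantile normalization produces. Which software and which background correction were applied is not given in the sources used here. With 3 arrays in a group, their number limits the precision.

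Of 47322 probes 30113 carry 1 gene symbol, 8 several and 17201 none in the platform table used. Log2 was taken after raising any intensity under 1 to 1. A gene was represented by its brightest probe and tested where that probe's mean was above log2 1.76, the median over probes, so that 12334 genes were tested with limma 3.58.1 in R 4.3.3 (lmFit, eBayes, two-sided, 4 residual and 1.24 prior degrees of freedom, Benjamini-Hochberg). The background level is the 95th percentile of 564 probes for olfactory and taste receptors and keratin-associated proteins. The test was tested on simulated data. Figures used Python 3.11.15, pandas 2.3.3 and matplotlib 3.10.9. Promoter sequences and gene positions come from RefSeq tables on GRCh38.p14.

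Every member is named; values by array are given for called genes, for the 4 smallest p in each class, for probes of opposite sign above the filter and for amino acid pairs of opposite sign. Values by array for EPRS1, GARS1, PARS2, VARS1, WARS1 and ATF4 were added after they were seen. The members, lists and motifs were chosen with earlier results of these data known. The alternatives were other normalizations, filters, probe summaries, an offset of 16, a trended and robust prior, array weights, the replicate number as a block and each array left out.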

Additional observations from a re-analysis of the deposited data

How the results depend on the processing

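The other normalizations, the stricter filter, the test of every probe, the robust prior and the block left both class medians as they were, by construction or because nothing in them changed. The cytosolic median stayed above the mitochondrial one without a filter, with probes averaged, with the offset, with array weights and without any 1 array, where the difference ran from 0.053 (without array 1 of 7l) to 0.178 (without array 2 of 7l). Without any 1 array 8 to 33 genes and 0 synthetase genes were called (1986 to 2207 genes and 4 to 8 synthetase genes at an unadjusted p under 0.05), the cytosolic median ran from 0.0442 to 0.119 and the mitochondrial one from -0.0591 to -0.00883. With the replicate block 0 genes and 0 synthetase genes were called by limma (2107 and 7 at an unadjusted p under 0.05), and SARS2 had an adjusted p = 0.197. Deviations of same-numbered arrays correlated at -0.023, -0.0027 and 0.0043, and those of differently numbered arrays between -0.021 and 0.024. No deviation shared by number was thus seen, which cannot settle whether the arrays were prepared in pairs. The numbers come from the titles and not from the conflicting description field. The stricter filter called 480 genes and 2 synthetase genes, the offset of 16 called 734 and 2, and the trended and robust prior 1702 and 7. Without a filter 437 genes and with array weights 337 were called, with 2 synthetase genes each, in each case AARS1 beside SARS2, as with the stricter filter and the offset. Without a filter, which adds the dim WARS2, the mitochondrial median was -0.062 and the class difference 0.148. With the probes of a gene averaged, the mitochondrial median was 0.0084 and MARS2 measured 0.191, turned by its dim probe. The changes of 8 genes, the largest of them CARS2 at 0.15, turned sign when 1 array was left out. The lowest and highest values were -0.018 and 0.114 for AARS2, -0.0016 and 0.322 for CARS2, -0.112 and 0.023 for FARSB, -0.059 and 0.100 for HARS2, -0.059 and 0.047 for KARS1, -0.036 and 0.032 for LARS2, -0.017 and 0.055 for RARS1 and -0.059 and 0.015 for RARS2. Centring the arrays, a second quantile normalization, averaging probes and testing every probe alone left SARS2 as the 1 synthetase call. The causes of these changes were not tested otherwise.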
